A study of Mus musculus with 24 samples.

Results

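The comparison described here sets the whole back skin of mice fed in the middle of the day (MD) against that of mice fed early in the day (ED), averaged over the day. Its members are all 8 MD libraries and all 8 ED libraries, 16 of the 24 libraries of the series, taken by their labelled feeding group and matched by sampling time. ED mice had food from ZT0 to ZT4 and MD mice from ZT5 to ZT9, where ZT (zeitgeber time) counts hours from lights on in a cycle of 12 h of light and 12 h of dark. The third group (EN), fed from ZT12 to ZT16, contributed 8 further libraries and is used here to show where MD and ED stand. All groups were wild-type male C57BL/6NCrl mice of about 8 weeks on regular chow, with restricted feeding for 18 to 21 days and water always present. Skin was collected in telogen, the resting phase of the hair cycle, at ZT0, ZT4, ZT8, ZT12, ZT16, ZT20, ZT24 and ZT28. Each library was 1 pool of RNA from 2 to 4 mice, so each group had 1 pool per time. The sources used here do not say whether pools of different times came from separate cages or batches, so a p-value reflects only how much these pools varied. The question the design poses is whether a shift of the meal by a few hours changes the mean level of gene expression in skin. Lights on and the point 4 h later were each sampled on 2 days (ZT0 and ZT24, ZT4 and ZT28), so they weigh more in the mean and a shift of phase can move it.

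Whole back skin of the mouse holds the epidermis, hair follicles and sebaceous glands, the collagen-rich dermis, a layer of dermal fat and, beneath it, the panniculus carnosus, a thin sheet of skeletal muscle. The muscle sheet is built mainly of fast fibres, and the share of muscle and fat in a sample depends on how the skin is cut and cleaned. Fibroblasts and other skin cells keep a positional code of Hox transcription factors, in which higher paralogue numbers mark more posterior body positions. The labels name the tissue only as whole back skin, so the position of the piece along the back and the depth of the cut cannot be told apart from the feeding group. In bulk RNA of this kind, fewer cells of a type and less RNA per cell cannot be told apart either.

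Of 15555 genes tested, 2379 differed in mean level between MD and ED (15.3%), 1123 of them higher in MD (7.22%) and 1256 lower (8.07%). These shares stand beside every list count below, and a count close to them is not particular to its list. The test was edgeR's quasi-likelihood F test on exon read counts with sampling time as a block, and a gene was called at a Benjamini-Hochberg adjusted p under 0.05, as for every adjusted p below unless another test is named. Differences are means of the 8 paired log2 CPM (reads per gene scaled to library size) values, MD minus ED, with the standard error over the 8 times. Among the called genes, 594 were higher in MD at all 8 times (3.82% of those tested) and 640 were lower at all 8 times (4.11%). Every MD library lay beyond every ED library for 215 of the called genes (1.38%), 96 higher and 119 lower. Called differences of at least 1 log2 unit numbered 76 upward and 124 downward, and the median over all genes was -0.0037.

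The third feeding group was set beside both. In a fit of all 24 libraries, EN against ED gave 0 calls of 15719 genes (0%), with 1172 genes at an unadjusted p under 0.05, a smallest adjusted p of 0.296 and 4 calls by DESeq2. MD against EN gave 2089 higher and 2432 lower genes (28.8%). These contrasts share libraries and are given side by side only. Intron rows, which count reads in the introns of the same genes, gave 634 higher and 444 lower calls among 14387 tested (7.49%). Of 1020 genes called higher in exons that had a tested intron row, 267 were also called higher in introns and 7 lower. Of 1026 called lower in exons, 138 were lower in introns and 8 higher.

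Exon counts ran from 16569065 to 22634710 per library in MD and from 13222667 to 21123206 in ED, and intron rows took 35.5% to 42.5% and 32.7% to 41.4% of all assigned counts. The descriptions carry a code whose meaning is not stated: MD libraries hold codes L1 to L3 and ED libraries L3 to L6. For MD against ED, the code and the feeding group therefore cannot be told apart except within L3. EN libraries hold L6 to L8, with 1 ED and 2 EN libraries in L6. MD and EN share no code, so their contrast cannot be told apart from it. Code L3 holds MD ZT24, MD ZT28 and ED ZT0. MD ZT24 and ED ZT0 share both the code and the clock time of lights on, and the difference between these 2 libraries alone was positive for 936 of the 1123 genes called higher (83.3%) and negative for 1013 of the 1256 called lower (80.7%). These 2 libraries are among the 16 tested, so the count is a description. MD ZT20 and MD ZT12 lay inside the ED range for 54.8% and 49.9% of called genes, ED ZT28 and ED ZT0 inside the MD range for 55.9% and 50.4%, and ED ZT8 for 14.8%. For hair shaft and growing-follicle genes, 2 libraries stood apart from the telogen label: ED ZT24 with 801.2 CPM (ED median 45.23) and EN ZT0 with 2401 CPM (EN median 42.06). Without ZT24 in both groups, 951 genes were higher in MD than in ED and 1012 lower. Without EN ZT0, EN against ED again gave 0 calls, with 840 genes at an unadjusted p under 0.05, and MD against EN gave 1779 higher and 2106 lower.

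Transcript length moved with the group. Among genes whose longest annotated transcript is under 200 nt, 69.3% were called lower and 1.33% higher, with a median difference of -1.51. The called-lower share fell to 29.0% at 500 to under 1000 nt, 7.31% at 2000 to under 4000 nt and 1.90% at 8000 nt and over, where 23.5% were called higher. Intron rows of the same genes had medians between -0.033 and 0.019 from 1000 nt upward. Their median was -0.03 at 500 to under 1000 nt and -0.26 at 200 to under 500 nt, where the exon median was -0.48. Under 200 nt there was no intron value. Single libraries differed widely: the median deviation of long genes (4000 nt and over) minus that of short ones (under 1000 nt) ran from -0.04 in MD ZT12 to 0.41 in MD ZT0, and from -0.61 in ED ZT12 to 0.03 in ED ZT28. A fit with this trend removed, chosen after seeing the data, called 890 genes higher and 907 lower, and 1505 of the 2300 called genes it tested kept their call and sign. Under 200 nt this fit still called 40 of 75 genes lower and 7 higher, with a median of -0.78. The part of length in the other differences was not tested.

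**Figure D1:**
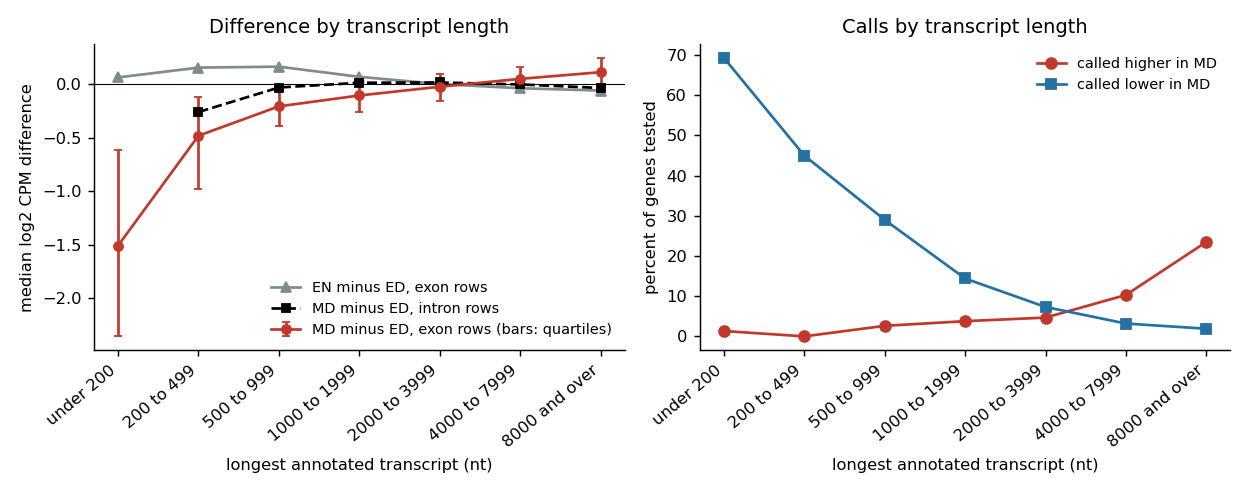
Left, median log2 CPM difference (MD minus ED in exon and intron rows, EN minus ED in exon rows) in 7 classes of longest annotated transcript in nt, with bars for the quartiles of MD minus ED; right, percent of genes called in each class. The MD minus ED exon median rises from -1.51 under 200 nt to 0.12 at 8000 nt and over, and the share called lower falls from 69.3% to 1.90%.

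Slow-fibre contractile genes were far lower in MD. The slow skeletal muscle list had 6 of 12 tested members lower and 2 higher, with a median of -1.01. Myh7, the slow myosin heavy chain (chromosome 14, 54970684 to 54994626, GRCm38), had 0.0497 to 10.4 CPM in the MD libraries (median 0.614) and 8.00 to 31.2 CPM in ED (median 19.9). MD ZT12 and MD ZT16 were the high MD libraries, with 8.92 and 10.4 CPM, and were the only ones to reach the ED range. The difference was -4.23 ± 0.76 (SE, 8 times), lower at 8 of 8 times, with an adjusted p of 0.00141. Its intron row was lower too (-2.19, adjusted p = 0.0389).

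The partners of Myh7 in the slow sarcomere moved with it. Myl2, the slow regulatory light chain, had 0 to 4.06 CPM in MD (median 0.391) and 1.82 to 10.45 CPM in ED (median 5.23), a difference of -3.23 ± 0.56 and an adjusted p of 0.00114. MD ZT12 held the highest MD level of Myl2 and overlapped the ED range. Tnni1 and Tnnc1, slow troponin I and C, fell by 2.67 and 2.39, Myl3 by 1.91 and Tnnt1, slow troponin T, by 1.68 on the log2 scale. All but Myl3 were lower at 8 of 8 times. In EN, Myh7 ran from 2.58 to 27.1 CPM and Myl2 from 1.41 to 7.87 CPM, close to ED (EN minus ED -0.51 and -0.21, adjusted p = 0.856 and 0.947). With the length trend removed, Myh7 was at -4.30 and Myl2 at -3.04, and both kept their call.

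The other called members of the slow list went the other way. Mybpc1, slow myosin-binding protein C, rose from 160.1 to 282.9 CPM in ED (median 180.7) to 262.8 to 411.6 CPM in MD (median 325.7). Myoz2, a Z-disc protein that binds calcineurin, was higher by 1.13 ± 0.20 (adjusted p = 0.000822). The summed CPM of the slow list was higher in MD (651.1 to 778.7) than in ED (558.3 to 743.4) while its median member was lower. Atp2a2, Tpm3, Casq2 and Myl6b did not pass the test.

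Genes of the fast skeletal muscle list were higher in MD in the same libraries. Of 26 tested members 17 rose and none fell, with a median of 0.68, and 7 of the 17 were higher at 8 of 8 times. Neb, the giant ruler protein nebulin, had 3139 to 4693 CPM in MD (median 3976) and 1308 to 3244 CPM in ED (median 1795). Only ED ZT28 reached the MD range. The difference was 1.04 ± 0.13, higher at 8 of 8 times (adjusted p = 0.000187). Titin (Ttn) rose by 0.98, Ryr1, the calcium release channel of the sarcoplasmic reticulum, by 1.08, and the fast myosins Myh1 and Myh2 by 1.04 and 0.71. Myh4, a fast myosin with 3908 to 8283 CPM in MD and 2829 to 8248 CPM in ED, rose by 0.64. Acta1, the skeletal muscle actin, rose by 0.60. Both were higher at 6 of 8 times. Their calls were lost in 1 and 5 of 8 fits that left out 1 time (adjusted p up to 0.057 and 0.0984). Summed over the list, MD held 61130 to 91230 CPM and ED 29310 to 77650 CPM, higher in MD at 8 of 8 times. Much of each sum was Ttn, with 38270 to 52350 CPM in MD and 16170 to 40100 CPM in ED. The longest Ttn transcript has 106824 nt, and with the length trend removed Ttn was at 0.67.

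Transcript length differed between the fast genes that passed and those that did not. The 17 called members had a median transcript length of 3480 nt and the 9 others 1290 nt. Mylpf and Myl1, the fast light chains, had differences of 0.10 (adjusted p = 0.743) and 0.17 (adjusted p = 0.498). With the length trend removed, 20 of 26 members were higher and none lower, Mylpf and Myl1 had values of 0.31 and 0.33 and neither was called. EN minus ED had a median of 0.30 over the list. No member was called in EN against ED, where no gene at all was called.

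Genes of stretched, injured or remodelling muscle were also higher in MD. Of the list of stretch and junction genes, 9 of 12 tested rose and 1 fell, with a median of 0.99, and 8 of the 9 were higher at 8 of 8 times. Ankrd1, a titin-binding protein that is induced by stretch (chromosome 19, 36111965 to 36119844), had 5.26 to 54.2 CPM in MD (median 19.2) and 1.42 to 11.3 CPM in ED (median 4.14). MD ZT28 and MD ZT0 were highest and MD ZT20 fell within the ED range. Its difference of 2.18 ± 0.42 (adjusted p = 0.000987) was the largest upward one of all genes tested. Xirp1, an actin-binding protein of the muscle-tendon junction, had 131.0 to 628.8 CPM in MD and 32.5 to 278.6 CPM in ED, a difference of 1.75 ± 0.35.

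Related structural genes followed the same order. Xirp2, Ankrd2 and Csrp3, stretch-linked proteins of the sarcomere, rose by 1.12, 1.00 and 0.98, and Musk, the receptor kinase of the neuromuscular junction, by 0.66. Lmod2, which lengthens thin filaments, had 26.3 to 88.4 CPM in MD and 11.05 to 23.6 CPM in ED, with no overlap, a difference of 1.61 ± 0.21 (adjusted p = 7.97e-05). Flnc and Nrap, which tie myofibrils to the membrane, rose by 1.44 and 1.32, and Nos1, the neuronal nitric oxide synthase of the muscle membrane, by 1.30 with no overlap. The exception was Actc1, the cardiac actin also made in immature muscle, at -1.45 ± 0.59 (adjusted p = 0.0488). Its call was lost in 5 of the 8 fits that left out 1 time, with adjusted p up to 0.11, and with the length trend removed (adjusted p = 0.0809).

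Regulators of muscle identity rose as a group, 9 of 10 tested, with a median of 0.83. Only 1 of the 9, Mef2c, was higher at 8 of 8 times. Myog, the transcription factor of muscle differentiation, had 2.62 to 5.50 CPM in MD and 0.833 to 4.12 CPM in ED (difference 1.22 ± 0.29, adjusted p = 0.00661). Pax7, which marks satellite cells, had 0.497 to 2.09 CPM in MD and 0 to 1.000 CPM in ED (1.52 ± 0.35, adjusted p = 0.0191). Myf6 and Mef2c rose by 0.90 and 0.50, and the perinatal myosin Myh8 by 1.2. Levels of Pax7 are near the floor of detection, and its call was lost without ZT8 (adjusted p = 0.0508) or ZT12 (0.0638) in both groups. Myod1 (1.02, adjusted p = 0.0486) lost its call in 6 of 8 fits that left out 1 time, with adjusted p up to 0.127.

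The ED library of ZT28 had high muscle genes. It held 179.3 CPM summed over the muscle regulators against an ED median of 111.6, and 1392 CPM over the stretch and junction list against 705.2. In that library Myod1 was at 13.05 CPM against an ED median of 2.63. Without ZT28 in both groups, 1120 genes were higher and 1247 lower, and the fast and stretch lists had 19 and 9 members higher.

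**Figure D2:**
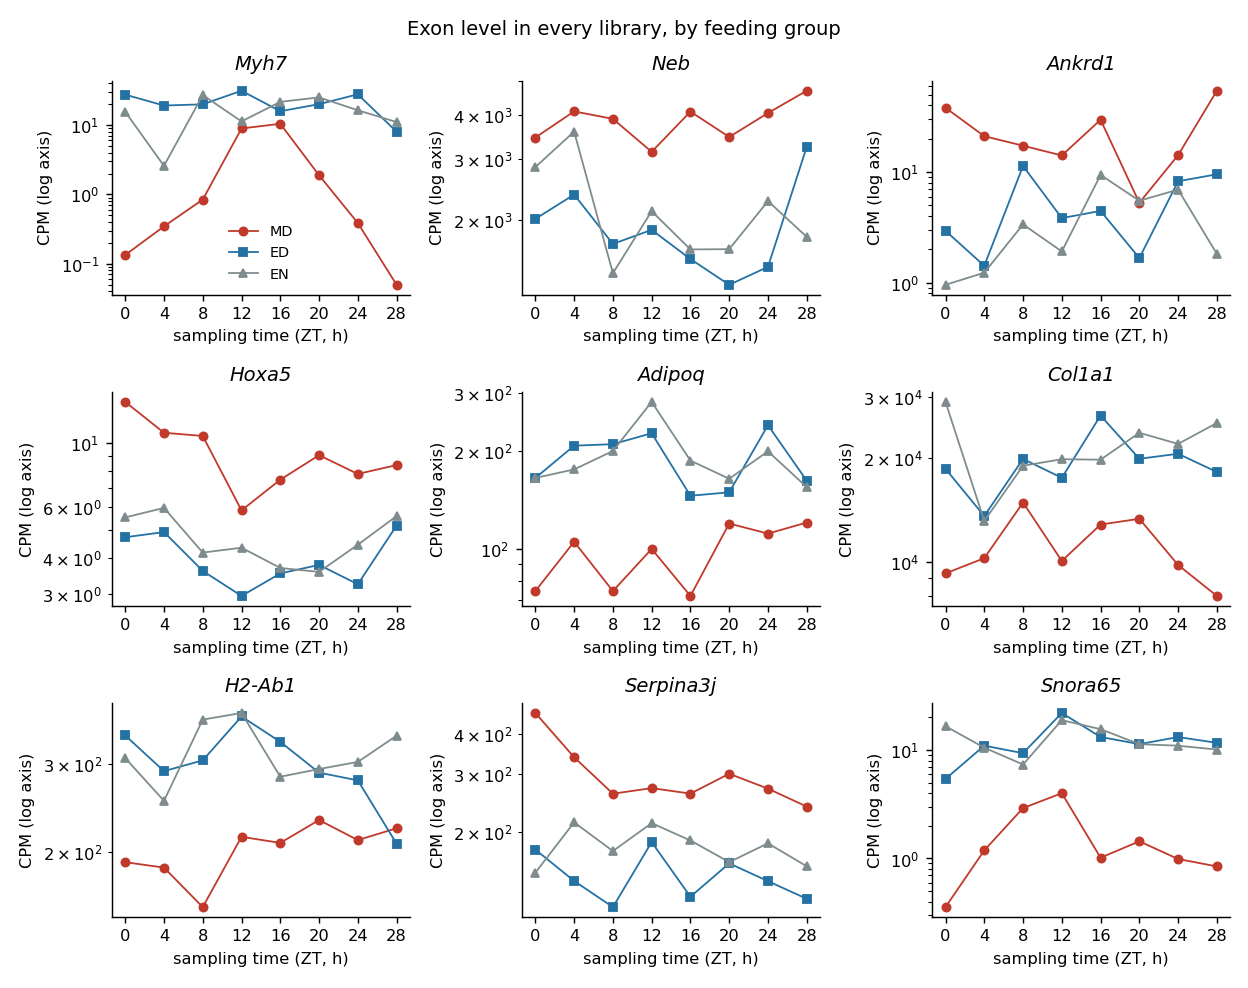
Exon level (CPM, log axis) of 9 genes in every library of MD, ED and EN against sampling time (ZT, h); EN levels use the scaling of all 24 libraries. Adipoq, Hoxa5, Serpina3j and Snora65 show no overlap between MD and ED, while Myh7 in MD reaches the ED range at ZT12 and ZT16.

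Hox genes of the middle and posterior trunk were higher in MD. Of 27 tested, 10 rose and none fell. Among paralogues 1 to 5, 2 of 13 rose (median 0.10), among paralogues 6 to 8, 5 of 8 (median 0.65), and among paralogues 9 to 13, 3 of 6 (median 0.87). By cluster, 5 of 9 Hoxa, 2 of 8 Hoxb and 3 of 5 Hoxc genes rose, and none of 5 Hoxd genes was called.

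Hoxa5 (chromosome 6, 52201754 to 52204587), which patterns the neck and upper trunk, had 5.84 to 13.9 CPM in MD (median 8.74) and 2.95 to 5.18 CPM in ED (median 3.69). The groups did not overlap, and MD ZT0 was highest. The difference was 1.18 ± 0.10, with an adjusted p of 6.25e-05. Hoxa7, a thoracic gene, had 3.88 to 12.2 CPM in MD and 1.504 to 4.47 CPM in ED, and rose by 1.40 ± 0.28. At ZT28 the difference was -0.01, and it was positive at the other 7 times.

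The posterior members were low and more variable. Hoxa9 had 0.610 to 6.86 CPM in MD (median 1.93) and 0.269 to 1.2 CPM in ED (median 0.633), a difference of 1.64 ± 0.46 (adjusted p = 0.00847). Hoxa10 and Hoxb9 rose by 1.54 and 1.58. Hoxc6, Hoxc8 and Hoxb7 rose by 0.76, 0.67 and 0.63. Hoxa6 (0.97) and Hoxc5 (0.39) were called with all 16 libraries and lost the call in 5 and 6 of the 8 fits that left out 1 time, with adjusted p up to 0.0674 and 0.0974.

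Mira, a noncoding transcript of the Hoxa cluster that lies between Hoxa6 and Hoxa7, was higher by 1.53 ± 0.23 (adjusted p = 0.000501). No source used here says how overlapping transcripts on the same strand were counted, so reads of Mira and its neighbours may be shared. The anterior genes Hoxb2, Hoxb3, Hoxb4 and Hoxc4 had differences between -0.13 and -0.03. In EN, Hoxa5 and Hoxa7 were 0.24 and 0.24 above ED (adjusted p = 0.679 and 0.850). Over all called Hox genes EN minus ED ran from 0.10 (Hoxc5) to 0.89 (Hoxa10). In MD against EN, Hoxa10, Hoxb7, Hoxc5 and Hoxc8 were not called (adjusted p = 0.135, 0.0603, 0.0616 and 0.0585, fit of all 24 libraries). Other position genes gave 1 higher and 1 lower of 20, Sim1 at 0.83 and Meox1 at -0.40, whose calls were lost in 4 and 6 of 8 fits that left out 1 time (adjusted p up to 0.0709 and 0.121). Meox1 was not called with the length trend removed either (adjusted p = 0.0745). The Hox counts were 2, 5 and 3 again with the length trend removed.

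**Figure D3:**
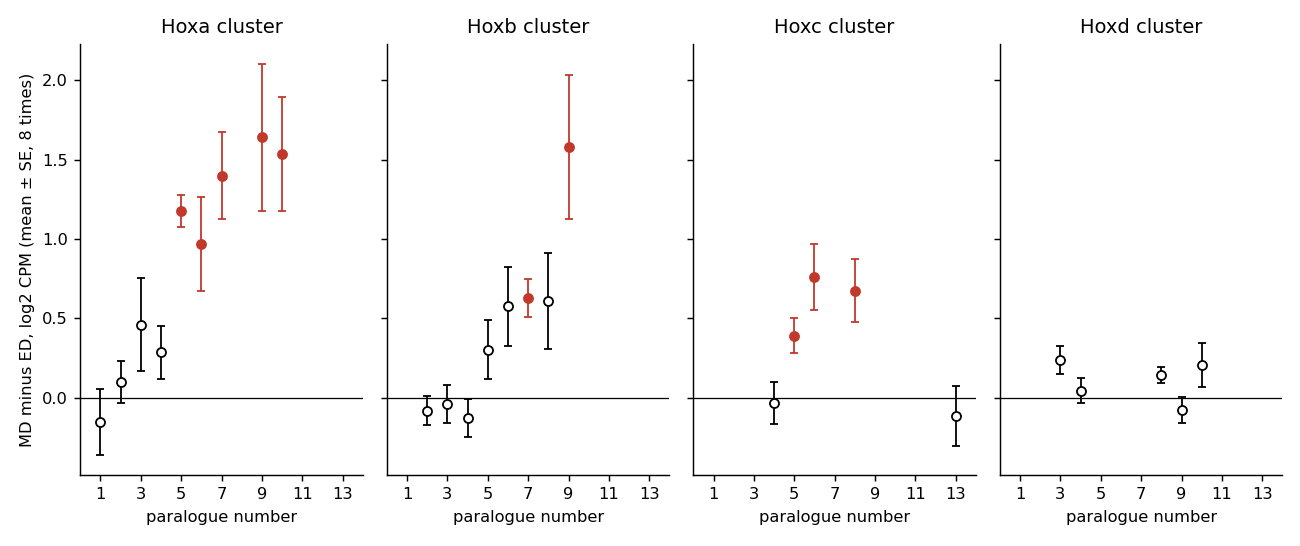
MD minus ED difference (log2 CPM, mean and SE of 8 sampling times) of each tested Hox gene against its paralogue number, 1 panel per cluster; filled red points were called higher. Differences run from -0.15 to 0.46 for paralogues 1 to 4 and reach 1.64 for Hoxa9 and 1.58 for Hoxb9, while the Hoxd cluster lies between -0.08 and 0.24.

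Fat genes were lower in MD. Of 20 adipocyte markers tested, 14 fell and none rose, 9 of the 14 at all 8 times, with a median of -0.52. Adipoq, the hormone adiponectin (chromosome 16, 23146536 to 23157968), had 72.1 to 120.7 CPM in MD (median 102.9) and 145.7 to 239.1 CPM in ED (median 186.1). No MD library reached the ED range. The difference was -0.95 ± 0.14 with an adjusted p of 0.000208.

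Other secreted and lipid-handling products of adipocytes moved alike. Cfd, the serine protease adipsin, had 314.9 to 553.6 CPM in MD and 636.4 to 1114 CPM in ED (-0.96 ± 0.17), and Lpl, the lipase that unloads lipoproteins, had 245.9 to 346.4 and 365.8 to 645.6 CPM (-0.63 ± 0.10), both with no overlap. Fabp4, the fatty acid carrier, fell by 0.73, Plin1, the coat of lipid droplets, by 0.92, and Retn, resistin, by 1.17. Pparg, Cidea, Lipe, Plin4, Car3 and Acvr1c did not pass. With the length trend removed 14 members were lower and 1 higher, Car3 at 0.28. EN minus ED was 0.03 for Adipoq, 0.07 for Cfd and 0.03 for Fabp4.

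Lipid synthesis genes fell in part: 9 of 25 fell and 1 rose, with a median of -0.39. Thrsp and Agpat2, which act in triglyceride synthesis, had differences of -1.01 ± 0.20 and -1.14 ± 0.25, and Slc25a1, the mitochondrial citrate exporter, -0.58 ± 0.13. Acacb, the acetyl-CoA carboxylase isoform of muscle and liver mitochondria, rose by 0.39 and was higher at 8 of 8 times. Fasn and Scd1 did not pass (adjusted p = 0.0919 and 0.156). In the cholesterol list 4 of 24 fell and 2 rose, with Insig1, which holds back the activation of sterol synthesis, at -0.64 ± 0.18 (adjusted p = 0.00892). Of the fasting list 3 fell and 2 rose of 24, and of the brown fat list 1 of 8 rose, Ppargc1a at 0.56, whose call was lost in 4 of 8 fits that left out 1 time (adjusted p up to 0.0672).

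Collagen genes were lower in MD with fibroblast genes split. Of 25 tested members, 12 fell and 2 rose, 10 of the 12 at all 8 times, with a median of -0.15. Col1a1 (chromosome 11, 94936224 to 94953042), a chain of type I collagen, had 8000 to 14870 CPM in MD (median 10190) and 13590 to 26490 CPM in ED (median 19230). MD ZT8 overlapped the ED range. The difference was -0.81 ± 0.11 (adjusted p = 0.00115), and the intron row gave -0.79 (adjusted p = 0.000475). On the deposited RPKM, which the authors corrected for length and GC content, the difference of Col1a1 was -0.20 and was not called (limma, adjusted p = 0.231).

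Col3a1 fell by 0.63, Col5a2 by 0.42 and Lum, lumican, which spaces collagen fibrils, by 0.67. Cthrc1, a collagen-linked secreted protein, fell by 0.87. Thbs2 and Postn, matricellular proteins, were higher by 0.63 and 0.41, and Postn lost its call in 4 of 8 fits that left out 1 time (adjusted p up to 0.0656). Fbn1, Eln, Dcn, Fn1, Pdgfra and Tnc did not pass. With the length trend removed the list again had 12 lower and 2 higher. Igf1, a growth factor made in the dermis, fell by 0.57. Its list of insulin, FOXO and amino acid shortage genes gave 4 higher and 4 lower of 24. Of 19 imprinted growth genes 2 rose, 3 fell and 14 were not called, with a median of 0.0006. Among these, Rian and Ndn fell by 0.57 and 0.46, and H19 and Cdkn1c, which restrain growth, rose by 0.77 and 0.65.

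Of the immune cell markers tested, some were called lower and none higher, beside 8.07% of all genes called lower. Macrophage and class II genes fell in 5 of 17 (29.4%) and mast cell genes in 4 of 9 (44.4%). T and natural killer cell genes fell in 2 of 14 (14.3%) and Langerhans and dendritic cell genes in 2 of 10 (20%). Both of these lists rest on few calls. The counts of the 4 lists were 3, 3, 2 and 1 with the length trend removed, when 907 of 14876 genes were called lower. Cd207, the Langerhans cell lectin, lost its call in 3 of 8 fits that left out 1 time (adjusted p up to 0.0703) and with the trend removed (0.0934), and Cpa3, a mast cell protease, in 2 of 8 (up to 0.0635) and with the trend removed (0.0504). H2-Ab1, a class II antigen-presenting chain, had 155.4 to 231.8 CPM in MD and 207.9 to 373.0 CPM in ED, a difference of -0.57 ± 0.12 (adjusted p = 0.00307). ED ZT28 was the ED library within the MD range. Cd209a, a dermal dendritic lectin, fell by 0.69, Cd3g, a chain of the T cell receptor complex, by 0.66, and the mast cell proteases Cma1 and Mcpt4 by 0.66 and 0.69. Neutrophil genes gave no call among 5, and B cell genes were too low to test.

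Epidermal genes differed by less. Of 12 basal keratinocyte markers 5 rose, led by anchoring proteins of long transcripts: Dst by 0.45, Col17a1, a hemidesmosome collagen, by 0.32 and Lama3 by 0.29. With the length trend removed 1 of 12 was called, Col17a1 at 0.26. Krt5 and Krt14, the basal keratins, had differences of -0.03 and -0.12. Of the cornified list 4 of 24 rose and 1 fell, and 7 and 1 with the trend removed. Lce1c, a late envelope protein, rose by 0.42, Tgm3, an envelope cross-linker, by 0.70, and Lor, loricrin, fell by 0.42.

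Follicle and gland markers were mixed. Fa2h, which makes hydroxylated sebum lipids, rose by 0.41 and Awat2, a wax synthase, fell by 0.43, within 4 higher and 2 lower of 18 sebaceous genes. Of 13 bulge genes 1 rose (7.69%, beside 7.22% of all genes), Nfatc1 at 0.34, and of 7 hair shaft genes none was called. Smooth muscle genes gave 4 higher of 13: Des, which skeletal muscle also expresses, by 0.85, Lmod1 by 0.67 with no overlap, Synpo2 by 0.62 and Acta2 by 0.31, whose call was lost in 3 of 8 fits that left out 1 time (adjusted p up to 0.0641). Myh11, Actg2 and Cnn1 did not pass. Blood endothelium gave 1 higher of 12 (Vwf, 8.33%), nerve 1 of 14 (Mbp, 7.14%) and lymphatic endothelium none of 6. The first 2 shares are close to the 7.22% of all genes. Melanocytes gave 1 lower of 9 (Kit, which mast cells share), 11.1% beside 8.07% of all genes. Neither Vwf nor Mbp was called higher after removal of the length trend, and 1 nerve gene was then lower.

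**Figure D4:**
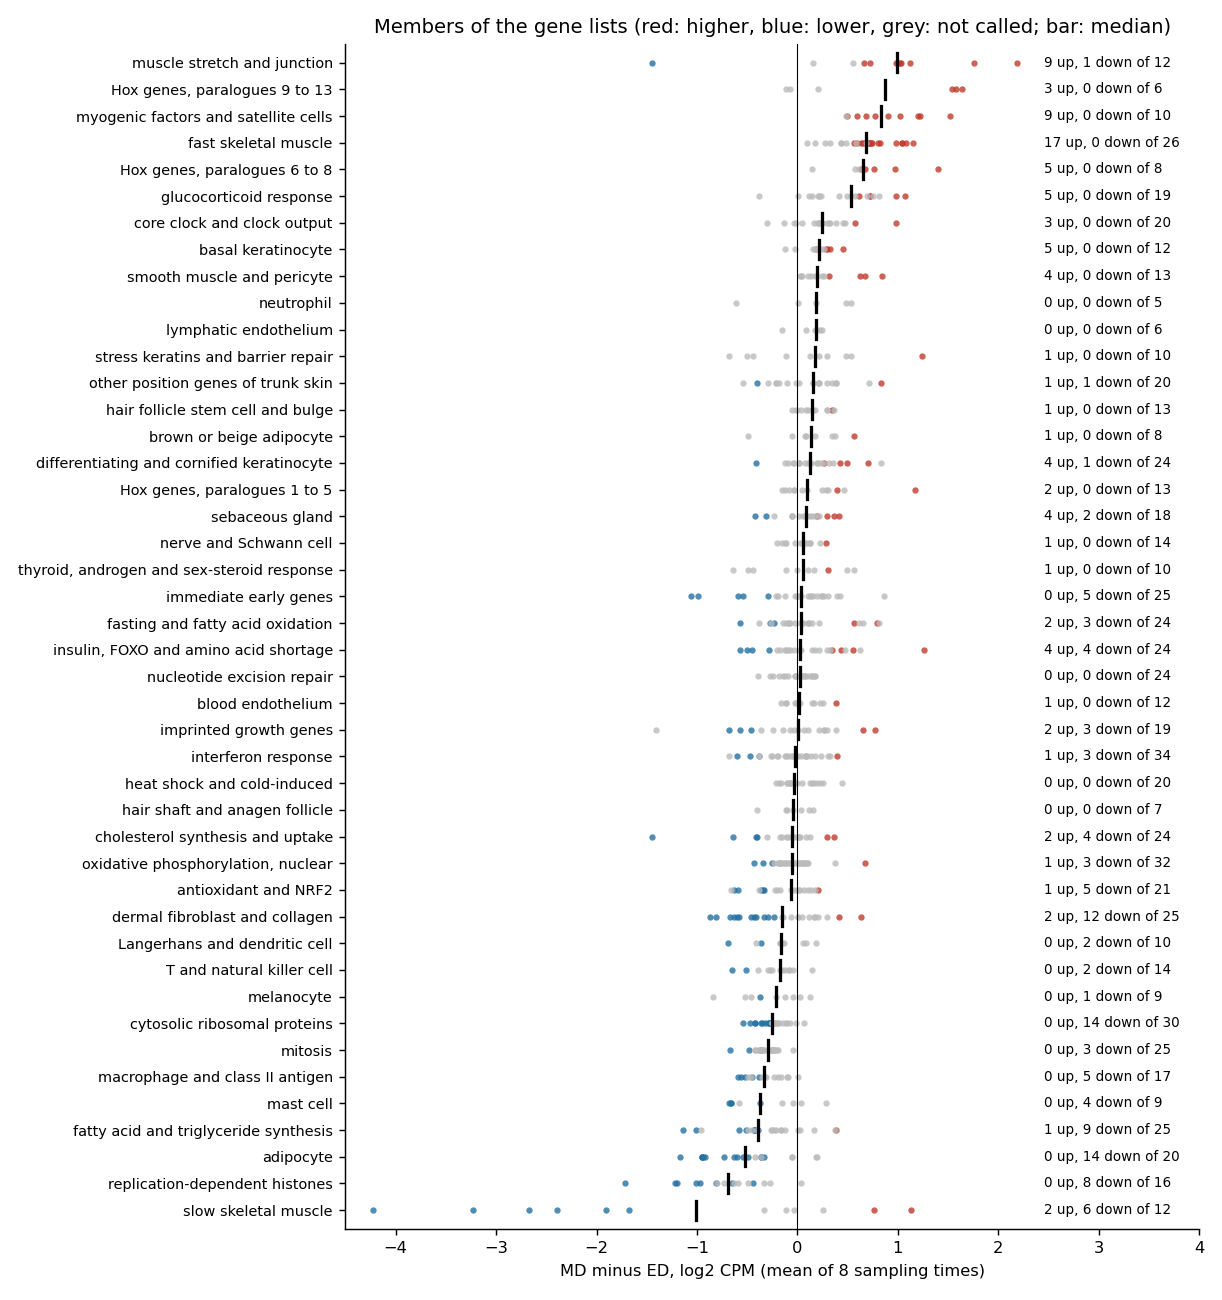
MD minus ED difference (log2 CPM, mean of 8 sampling times) of each tested member of the lists with at least 5 tested members, ordered by list median (bar), with the counts called at the right. Muscle stretch, myogenic, fast muscle and posterior Hox lists lie highest, and slow muscle, histone and adipocyte lists lowest.

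Clock and hormone-response genes rose in a few members. Of 20 clock genes 3 were higher in mean level: Usp2, a clock-controlled deubiquitinase, at 0.57 ± 0.13 (8 of 8 times), Per1, a core repressor, at 0.99 ± 0.36 (7 of 8) and Csnk1e, a kinase of the period proteins, at 0.25 ± 0.06 (8 of 8). At ZT4 and ZT28, the same clock time, Per1 differed by 2.17 and 2.70, and at ZT20 by -0.35. Without the second day (ZT24 and ZT28) Per1 was at 0.76 and was not called (adjusted p = 0.0613). The calls of Per1 and Csnk1e were lost in 3 and 5 of 8 fits that left out 1 time, with adjusted p up to 0.0735 and 0.0793. Arntl, Clock, Dbp, Nr1d1 and Per2 were not called on the mean, which says nothing on their phase. Of 19 glucocorticoid-response genes 5 rose, with a median of 0.54, and 2 without the second day (median 0.43). Zbtb16 had 100.6 to 504.6 CPM in MD and 48.5 to 213.4 CPM in ED (1.07 ± 0.33, adjusted p = 0.0127), and Klf9 rose by 0.61. In the pair sharing code L3, 14 of the 19 were negative and 5 positive, with a median of -0.39. There Zbtb16 and Lcn2 were at -0.73 and -0.71.

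Immediate early genes, the first transcripts after a stimulus, fell in 5 of 25 members (20%, beside 8.07% of all genes). The other 20 were not called, and the list median was 0.04. Their summed level in MD was 0.999 of that in ED, higher at 4 times and lower at 4. With the length trend removed 4 members were lower and 2 higher. Fos had 21.8 to 83.0 CPM in MD (median 33.3) and 29.0 to 117.2 CPM in ED (median 73.1), a difference of -0.99 ± 0.21 in exons (adjusted p = 0.00158) and -2.22 in introns (adjusted p = 0.000285). MD ZT16 was the high MD library. Egr1 fell by 0.59 in exons and 1.96 in introns, and Ier2 by 0.54. Dusp1, Jun and Nr4a1 did not pass.

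None of 24 nucleotide excision repair genes, which remove ultraviolet damage, was called, with a median of 0.02, and with the length trend removed 1 was, Ercc1 at 0.26. Xpa, which verifies the damage, had 6.32 to 13.3 CPM in MD (median 8.31) and 5.59 to 9.42 CPM in ED (median 7.47), a difference of 0.17 ± 0.12 (adjusted p = 0.354). MD ZT0 was its highest library. Heat shock genes gave no call among 20, and interferon genes 1 higher and 3 lower of 34 (none and 1 with the trend removed). The 3 lower interferon genes are 8.82% of their list, close to the 8.07% of all genes. Of 21 antioxidant genes 5 fell and 1 rose, and 3 and 1 with the trend removed. Sod1, the cytosolic superoxide dismutase, was at -0.33 with no overlap, and on the deposited RPKM it was at -0.13 and not called (limma, adjusted p = 0.128). Gsta3, a glutathione transferase, fell by 0.60 and lost its call on RPKM (limma, adjusted p = 0.0824) and in the fit of all 24 libraries (0.098).

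Ribosomal protein and histone genes were lower in part. Of 30 ribosomal protein genes 14 fell, with a median of -0.25, and 5 fell with the length trend removed. Rps19 had 198.2 to 264.7 CPM in MD and 243.3 to 425.0 CPM in ED, a difference of -0.47 ± 0.05 at 8 of 8 times (adjusted p = 0.000566), and its intron row gave -0.06. Histone genes made in S phase gave 8 lower of 16 (5 with the trend removed), with Hist1h4a at -1.72 ± 0.29 and no overlap. Near-identical histone copies can share reads. Mitosis genes gave 3 lower of 25 (12%, beside 8.07% of all genes, and 2 with the trend removed). Their sum was lower in MD at 5 of 8 times. ED ZT24, the library with high hair shaft genes, held 768.6 CPM of mitosis genes (ED median 409.6) and 1169 CPM of histone genes (ED median 596). Cdk1 was at -0.67, and its adjusted p reached 0.0221 at most in the fits that left out 1 time. Nuclear oxidative phosphorylation genes gave 3 lower (9.38%, close to the 8.07% of all genes) and 1 higher of 32. The higher one was Cox6a2, a muscle isoform, at 0.67. With the trend removed the oxidative phosphorylation genes gave 4 higher and 1 lower.

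Most small noncoding RNAs other than Mir genes, a group chosen after its values were seen, were far lower in MD. All 28 tested H/ACA small nucleolar RNAs (Snora genes), which guide pseudouridylation of ribosomal RNA, were lower in MD, 27 of them at all 8 times and 20 with no overlap, with a median of -2.31. Their summed level was 125.4 to 818.1 CPM in MD (median 418.3) and 1150 to 3050 CPM in ED (median 1882), and EN held 1197 to 2817 CPM (median 1978). Within code L3, MD ZT24 held 186.1 CPM and ED ZT0 1150 CPM. Of the Snora genes named by the rule, 4 are printed to show what was measured, each a transcript of 130 to 138 nt that ends in the ACA box 3 bases before its 3′ end (capitals), from the GENCODE annotation of GRCm38:
Snora69: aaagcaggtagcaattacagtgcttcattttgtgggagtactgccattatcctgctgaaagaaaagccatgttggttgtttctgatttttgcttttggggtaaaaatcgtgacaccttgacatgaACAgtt
Snora65: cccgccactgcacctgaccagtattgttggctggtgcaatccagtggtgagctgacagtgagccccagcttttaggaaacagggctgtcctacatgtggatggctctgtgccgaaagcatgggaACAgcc
Snora34: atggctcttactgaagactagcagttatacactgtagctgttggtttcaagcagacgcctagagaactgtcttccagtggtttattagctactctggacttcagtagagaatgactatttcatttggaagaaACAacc
Snora41: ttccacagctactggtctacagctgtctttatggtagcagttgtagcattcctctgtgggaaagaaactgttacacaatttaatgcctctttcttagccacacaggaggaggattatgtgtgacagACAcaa

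Snora69 lies on chromosome X from 37082912 to 37083042 (minus strand) in an intron of Rpl39. It had 0.0430 to 0.554 CPM in MD (median 0.275) and 1.63 to 12.5 CPM in ED (median 4.37), a difference of -3.81 ± 0.41 (adjusted p = 2.83e-05). Snora65, on chromosome 2 from 32963291 to 32963420 (plus strand) within Rpl12, had 0.356 to 4.00 and 5.41 to 21.9 CPM (-3.05 ± 0.25). Snora34 on chromosome 15 from 98519716 to 98519853 (minus strand), in an intron of Kansl2, was at -3.03, and Snora41 on chromosome 1 from 63179004 to 63179135 (plus strand), in an intron of Eef1b2, at -2.91. None of the 4 overlapped between groups. After removal of the length trend they were at -3.14, -2.38, -2.37 and -2.24, all still called, and 25 of the 28 Snora genes were called lower, with a median of -1.64.

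These RNAs are in general cut from introns of other genes. Of 26 Snora genes with annotated coordinates, 25 lay inside a gene on the same strand, 12 in an intron and 13 over an annotated exon. Their 22 tested hosts had a median exon difference of -0.14, with 5 called lower and none higher, the lowest being Rpl39 at -0.64. Kansl2 had 0.03 in exons. The hosts' intron rows were lower in MD for 21 of 22, with a median of -1.28 and a range of -2.11 (Ipo7) to 0.02 (Rab3gap2). Whether these rows include reads of the small RNA itself was not tested.

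C/D small nucleolar RNAs and Cajal body RNAs were lower as well, while single Mir genes were mixed. Of C/D RNAs 12 of 14 fell (median -1.36) and of Cajal body RNAs 7 of 8 (median -1.18). Mir genes gave 5 lower and 1 higher of 25 (median -0.20). The summed Mir level was lower in MD at 8 of 8 times with no overlap, 41.74 to 65.58 CPM against 79.49 to 195.3 CPM in ED. In the fit without the length trend, 7 C/D RNAs (median -0.62) and 5 Cajal body RNAs (median -0.77) were lower. Mir genes then gave 2 lower and 7 higher (median 0.43). Rnu12, the U12 RNA of the minor spliceosome, had 5.61 to 61.7 CPM in MD and 116.4 to 473.2 CPM in ED (-3.87 ± 0.42, no overlap). Vaultrc5, a vault RNA, was at -2.78. With the trend removed, Rnu12 and Vaultrc5 were at -3.23 and -2.13 and still called. Snhg1, a longer noncoding host of C/D RNAs (chromosome 19, 8723487 to 8726326), had the smallest p of all genes, at -2.39 ± 0.20 (adjusted p = 1.25e-05), with an intron row at -0.34 and a value of -2.36 with the trend removed. Library preparation used total RNA with an integrity number above 6.5 after a column cleanup, and its part in these levels was not tested. Leaving all small RNA entries out before scaling gave 1039 genes higher and 1257 lower.

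**Figure D5:**
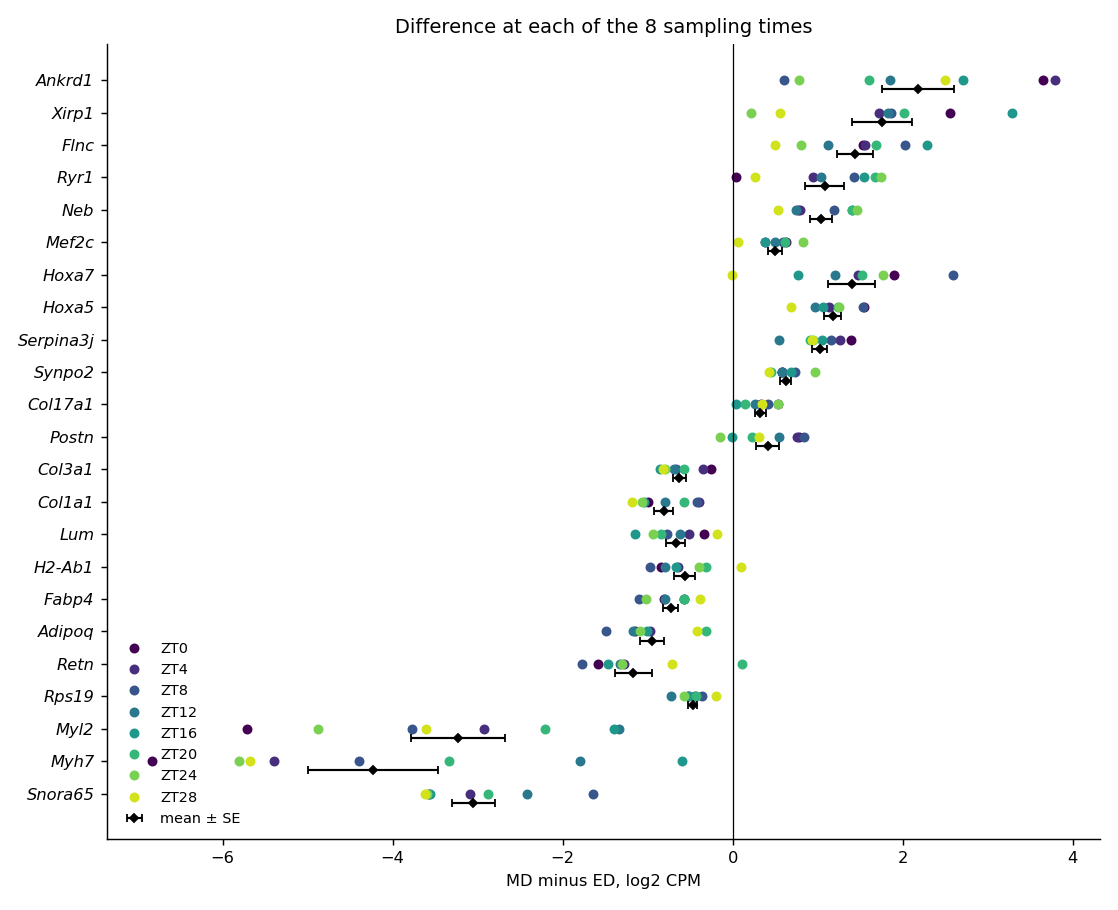
MD minus ED difference (log2 CPM) at each of the 8 sampling times (coloured points) with the mean and SE over times (black) for 23 genes of the groups described. Snora65, Myh7 and Myl2 lie lowest, all times of Adipoq, Col1a1 and Fabp4 are below 0 and those of Ankrd1, Neb and Hoxa5 above 0.

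Some of the largest steady differences belonged to no list. Serpina3j, a secreted serine protease inhibitor (chromosome 12, 104300722 to 104320586), had 239.0 to 462.2 CPM in MD and 117.7 to 186.1 CPM in ED with no overlap, at 1.02 ± 0.09 in exons (adjusted p = 2.61e-05) and 1.2 in introns. It belongs to a family of near-identical copies that can share reads. Ccl28, an epithelial chemokine, had 0.729 to 1.84 CPM in MD and 0.0588 to 0.385 CPM in ED (1.72 ± 0.29). Agxt2l1, a phospholyase, rose by 2.18 ± 0.35 with no overlap, Serpinb6e by 1.38 and Adprhl1, a muscle hydrolase-like protein, by 1.39. Defb8, a short defensin transcript, fell by 2.84 ± 0.61. EN minus ED was 0.32 for Serpina3j, 0.06 for Ccl28, 0.44 for Agxt2l1, 0.57 for Serpinb6e, 0.30 for Adprhl1 and 0.63 for Defb8. No gene at all was called in EN against ED, so the lack of a call is not particular to these genes.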

How the data were processed

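Strand-aware total RNA libraries of 24 skin pools were analysed. Per the submitters' processing notes, TopHat2, SAMtools and HOMER were used with mm10. The treatment of reads that map to several places: not given in the sources used here. The authors deposited raw read counts per gene model in exon, intron and antisense rows, and a table of RPKM values with conditional quantile normalization, per the file headers. Where 1 symbol had several gene models the one with most exon reads was kept (29758 symbols of 31872 models). Exon counts of 16 libraries were filtered (filterByExpr), TMM-scaled and tested with edgeR 4.0.16 (R 4.3.3), with sampling time as a block (7 residual degrees of freedom), and p-values were adjusted over all 15555 genes by Benjamini-Hochberg. Levels are CPM, and log2 values use a prior count of 2. EN levels come from a fit of all 24 libraries. Scripts were tested on simulated data. Transcript lengths (longest GENCODE vM21 transcript) matched 14876 genes (95.6%), and coordinates came from RefSeq GRCm38.p6 for 14951 symbols.

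The comparison, the 47 gene lists and the tests were chosen with earlier results of these data known. Genes were named if called with the same sign at 8 of 8 times (the 12 largest in each direction with a mean of at least 1 CPM, and the 6 with the smallest p), if among the 4 called members of a list with the smallest p (the 2 members with the smallest p where none was called), or as Xpa, Myh7 and Myl2. Other genes named were chosen after their values were seen. Alternatives were fits without the block, with all 24 libraries, with a daily cosine curve, with DESeq2 1.42.0, other scalings and filters, limma 3.58.1 on log2 RPKM with pseudocounts of 0.1 and 1, without the second day, without each time in turn, and 3 added after seeing the data (small RNA entries left out, the length trend removed, and, in the fit of all 24 libraries, EN ZT0 left out alone or with ED ZT24). Mitochondrial genome genes were not analysed here, and some genes that met the naming rule are not reported here.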

Additional observations from a re-analysis of the deposited data

Results flagged for a closer look

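In 47 of 382 groups of 8 libraries the highest or lowest library lay far from its group. Its gap to the next library, as a share of the group's range, was above Dixon's critical value for 8. Flagged were 32 of 274 single-gene groups, from 29 genes, and 15 of 108 groups of library measures, most of which are list sums. Chance alone flags about 1 group in 20. All values are CPM, each with the median of its own feeding group, and no cause was tested.

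ED ZT28 stood apart with slow skeletal muscle genes (sum) 743.4 CPM (median 612.8), myogenic factors and satellite cell genes (sum) 179.3 CPM (median 111.6), muscle stretch and junction genes (sum) 1392 CPM (median 705.2) and macrophage and class II antigen genes (sum) 1615 CPM (median 2516). In ED ZT28 there were also heat shock and cold-induced genes (sum) 5428 CPM (median 3865), Ryr1 1290 CPM (median 584.6), Myh4 8248 CPM (median 3908) and Xirp1 278.6 CPM (median 77.16). In ED ZT28 there were also Flnc 838.9 CPM (median 327), Nrap 350 CPM (median 175.4) and Nos1 23.7 CPM (median 13.45). In ED ZT28 there were also Actc1 42.51 CPM (median 15.31), Pax7 0.9996 CPM (median 0.2166), Myog 4.116 CPM (median 1.64) and Myod1 13.05 CPM (median 2.633). In ED ZT28 there were also Myh8 5.41 CPM (median 2.29), Hoxc8 8.762 CPM (median 4.999), Mira 2.999 CPM (median 1.759) and H2-Eb1 178.6 CPM (median 280.2). In ED ZT28 there were also Ccl28 0.0588 CPM (median 0.3084).

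ED ZT24 stood apart with Hox genes of paralogues 9 to 13 (sum) 24.51 CPM (median 15.84), hair shaft and anagen follicle genes (sum) 801.2 CPM (median 45.23), melanocyte genes (sum) 235.2 CPM (median 135.6) and Hist1h2ae 7.779 CPM (median 2.422). In ED ZT24 there were also Cdk1 21.49 CPM (median 7.802), Snora15 73.56 CPM (median 18.74) and Snora34 17.72 CPM (median 8.487).

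MD ZT16 stood apart with blood endothelium genes (sum) 640.1 CPM (median 515), immediate early genes (sum) 1997 CPM (median 1521), fasting and fatty acid oxidation genes (sum) 2999 CPM (median 1970) and Fos 83.02 CPM (median 33.31). In MD ZT16 there were also Fosb 32.77 CPM (median 12.54).

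MD ZT0 stood apart with Mylpf 510.3 CPM (median 1173), Mira 10.68 CPM (median 5.178), Serpina3j 462.2 CPM (median 271.7) and Xpa 13.31 CPM (median 8.311).

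MD ZT8 stood apart with hair shaft and anagen follicle genes (sum) 92.88 CPM (median 59.18), H2-Eb1 135.3 CPM (median 191.3) and Awat2 40.7 CPM (median 23.62).

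MD ZT12 stood apart with Myl2 4.06 CPM (median 0.3907), Pax7 2.091 CPM (median 0.7131) and Defb8 37.89 CPM (median 3.726).

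ED ZT12 stood apart with brown or beige adipocyte genes (sum) 316.6 CPM (median 234), Hox genes of paralogues 1 to 5 (sum) 58.5 CPM (median 71.4) and Snora65 21.94 CPM (median 11.49).

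MD ZT4 stood apart with neutrophil genes (sum) 73.89 CPM (median 22.4).

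ED ZT0 stood apart with Thbs2 263.5 CPM (median 186.8).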

How the results depend on the processing

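All 3 counts of genes (called, higher, lower) stayed within 1.5 times their value of 2379, 1123 and 1256 with DESeq2, both other scalings, no filter, limma on RPKM, without the second day, and with small RNA entries or the length trend removed. Without the replicate block by sampling time the counts were 2362, 1147 and 1215. The libraries of a time share only that time: same-time deviations correlated by -0.06 to 0.18 and over 0.1 for 2 of 8 times, and 1 MD library correlated best with the ED library of its own time. With a daily cosine curve in all 24 libraries, 3608 genes were called and 1755 were higher. Leaving out 1 time in both groups gave 1545 to 2638 called genes, 722 to 1229 higher and 823 to 1409 lower. The lowest counts came without ZT4 (1545 called, 722 higher, 823 lower), and counts also moved by over 1.5 times without ZT8 (730 higher), ZT12 (831 lower) and ZT16 (1585 called, 833 lower). Of the 134 called genes tabulated for the text, 105 kept call and sign under every alternative and 29 lost the call in at least 1. The only sign change was Mylpf, which was not called, at -0.03619 without ZT20. Limma on RPKM with a pseudocount of 0.1 kept 63.6% of the called genes and turned the sign of 55, and removing the length trend kept 65.4% and turned 5. Leaving EN ZT0 out of the fit of all 24 libraries, alone or with ED ZT24, kept EN against ED at 0 calls and moved MD against EN from 4521 to 3885 and 3878. The causes were not tested. With 1 pool per group and time, a difference at a single time has no replicate, and genes near 1 CPM rest on few reads.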
